A study of Mus musculus with 12 samples.

Results

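The genes described here are 39 interferon-stimulated genes, taken from a table of 45777 mouse genes by matching each gene symbol to a list of classical members of this response. All 39 were in the table. Of these, 38 were detected in 1 library or more, and 37 had enough counts to be tested. The samples were mpkCCDc11 cells, a cultured epithelial line of the mouse kidney cortical collecting duct, and the series asked how TAZ bears on aquaporin-2 in these cells. TAZ is a transcriptional coactivator of the Hippo pathway that is encoded by Wwtr1, and dDAVP is a vasopressin analogue that acts on the V2 receptor. Polyadenylated RNA was sequenced in 12 libraries.

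Each of the 4 groups had 3 libraries. They were TAZ siRNA with dDAVP, TAZ siRNA with vehicle, control siRNA with dDAVP and control siRNA with vehicle. All were labelled wild type, and dDAVP was given at 1e-09 M on the basolateral side after serum and hormone withdrawal. The labels list several exposure times and do not say which one applies here. Whether the 3 libraries of each group are separate cultures is not stated, so a p-value covers only library-to-library spread, part of which may be technical. Every group received an siRNA with a lipid reagent, and no untransfected or mock-transfected group was analysed here. A response that the control siRNA and the TAZ siRNA share cannot be told apart from the resting state of the line.

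Type I interferons bind a receptor pair on the cell surface, and the kinases JAK1 and TYK2 then phosphorylate STAT proteins. With IRF9 these form a complex that binds the interferon-stimulated response element, or ISRE, near the start of many interferon-stimulated genes. Double-stranded RNA, including some siRNAs, can start the same programme through the sensors RIG-I (encoded by Ddx58) and MDA5 (encoded by Ifih1), which is why these genes serve as a check on an siRNA experiment.

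Promoter windows are printed for 5 members that hold the element, chosen among those named below. RefSeq windows of GRCm38.p6, which run from 250 bases before to 50 bases after the start of the gene, were found for 31 of the 39 members. The ISRE core was searched as GAAA, any 2 bases and GAAA again, or on the other strand TTTC, any 2 bases and TTTC, and 12 of 31 members (38.7%) held it, against 1079 of 27025 genes with a window (3.99%). The motif TTCNNNGAA, the core of the gamma-activated site, was in 7 of 31 members (22.6%), against 9.55% of all genes. A match describes letters in a window and not a bound site. The windows of the 2 members that were higher with TAZ siRNA in at least 1 treatment and hold the element, Ddx58 and Isg15, are printed first, followed by Ifih1, Ifit1 and Rsad2. They lie at chr4:40239776-40240075 (Ddx58, minus strand), chr4:156200769-156201068 (Isg15, minus strand), chr2:62646206-62646505 (Ifih1, minus strand), chr19:34640639-34640938 (Ifit1, plus strand) and chr12:26456403-26456702 (Rsad2, minus strand). In all 5 the start site equalled that end of the deposited gene coordinates at which its strand begins. Capitals mark the matches, and each line reads 5′ to 3′ on the strand of the gene.
Ddx58: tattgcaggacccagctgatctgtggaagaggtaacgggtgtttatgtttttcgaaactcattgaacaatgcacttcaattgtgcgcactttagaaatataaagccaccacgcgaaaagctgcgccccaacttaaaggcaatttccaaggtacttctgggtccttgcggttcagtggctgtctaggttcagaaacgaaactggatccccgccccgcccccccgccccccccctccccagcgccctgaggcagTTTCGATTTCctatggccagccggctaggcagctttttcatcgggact
Isg15: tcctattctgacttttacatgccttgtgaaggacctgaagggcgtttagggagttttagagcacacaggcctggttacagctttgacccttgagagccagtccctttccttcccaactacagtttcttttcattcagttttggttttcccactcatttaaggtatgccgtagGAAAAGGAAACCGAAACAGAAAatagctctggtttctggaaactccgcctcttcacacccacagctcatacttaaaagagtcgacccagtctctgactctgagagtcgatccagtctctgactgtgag
Ifih1: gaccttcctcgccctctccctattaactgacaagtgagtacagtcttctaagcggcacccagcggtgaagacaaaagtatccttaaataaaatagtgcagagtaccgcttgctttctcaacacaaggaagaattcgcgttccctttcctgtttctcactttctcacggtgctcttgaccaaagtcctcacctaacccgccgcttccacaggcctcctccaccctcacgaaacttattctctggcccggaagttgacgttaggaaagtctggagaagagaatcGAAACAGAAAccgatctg
Ifit1: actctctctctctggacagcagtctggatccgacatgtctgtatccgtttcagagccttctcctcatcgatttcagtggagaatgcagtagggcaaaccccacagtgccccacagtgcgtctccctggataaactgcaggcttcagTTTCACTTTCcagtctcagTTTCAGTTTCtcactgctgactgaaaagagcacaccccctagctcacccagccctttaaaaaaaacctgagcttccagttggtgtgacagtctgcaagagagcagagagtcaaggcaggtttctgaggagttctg
Rsad2: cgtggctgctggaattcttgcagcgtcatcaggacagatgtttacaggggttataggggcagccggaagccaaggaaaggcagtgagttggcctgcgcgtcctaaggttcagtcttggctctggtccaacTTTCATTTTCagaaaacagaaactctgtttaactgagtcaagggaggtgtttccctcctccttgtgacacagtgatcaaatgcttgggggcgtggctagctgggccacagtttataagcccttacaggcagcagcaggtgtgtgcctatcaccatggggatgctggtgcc
Isg15 held 3 overlapping matches upstream of its start, Ifit1 held 2 separate ones and Rsad2 held 1. In Ddx58 and Ifih1 the match lay downstream of the start, within the transcribed part. Other members called in a comparison below, Phf11c, Oasl1, Ifi35, Ifit2, Irf1 and Trim25, had windows without the element.

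The checks of the labels came first. Wwtr1 stood at 107.5, 126.6 and 108.7 CPM (counts scaled to library size with TMM factors) with TAZ siRNA and dDAVP, against 173.9, 161.3 and 164.0 CPM with control siRNA and dDAVP. With vehicle it stood at 119.3, 114.5 and 115.5 CPM with TAZ siRNA, against 179.0, 185.6 and 177.2 CPM with control siRNA. The log2 fold change was -0.54 ± 0.05 (SE) with dDAVP and -0.63 ± 0.05 with vehicle, so much of the transcript remained. Aqp2, the water channel that defines principal cells, was at 9.11 to 13.7 CPM with TAZ siRNA and dDAVP and 29.3 to 44.8 CPM with control siRNA and dDAVP, against 0 to 0.145 CPM with TAZ siRNA and vehicle and 0.337 to 0.344 CPM with control siRNA and vehicle. The principal cell markers Aqp4 and Elf5 were too low to test. Library totals ran from 45095331 to 61725339 counts. Immune cell markers summed to 69.5 to 76.5 CPM per library, nearly all from Csf1r and Cd14, and of the 12 markers Itgam, Cd3e, Adgre1 and Tyrobp were at 0. The pan-leukocyte gene Ptprc had 109 counts over 10 libraries, at most 0.437 CPM, and Cd68 and Cd74 lay at 2.47 to 4.32 CPM and 0.604 to 1.29 CPM.

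Most members were expressed in every group. Levels can be set against each other only per length, and on the deposited TPM scale, which corrects for transcript length, 33 of 39 members averaged at least 1 TPM over the 12 libraries. Of these, 13 lay above 20.9 TPM, the median of all genes tested. Samd9l, which encodes an antiviral protein that restrains translation, stood far above the rest at a mean of 146.4 TPM, the 92.3rd percentile of tested genes. It made up 25.6% to 34.3% of the summed CPM of all members, depending on the library. Next came Irf1 at 55.0 TPM, Bst2 at 51.2 TPM, Trim25 at 50.1 TPM, Irf9 at 44.8 TPM, Ifitm3 at 43.8 TPM and Ifit2 at 41.9 TPM. Irf1 and Irf9 encode transcription factors of the pathway, Bst2 encodes tetherin, which holds budding virus on the cell surface, and Trim25 encodes a ubiquitin ligase that activates RIG-I.

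Among the antiviral effectors, the tetratricopeptide genes Ifit1 (23.6 TPM) and Ifit2 were well above Ifit3 (9.53 TPM) and Ifit3b (3.03 TPM). Isg15, a ubiquitin-like modifier, averaged 22.7 TPM. The RNA sensors averaged 20.1 TPM (Ddx58), 13.0 TPM (Ifih1) and 3.86 TPM (Dhx58, which encodes the regulator LGP2). The oligoadenylate synthetase family, whose enzymes switch on RNase L, spread from 21.8 TPM for Oasl2 and 13.7 TPM for Oas1a down to 1.15 TPM for Oas2 and 0.44 TPM for Oas3. Mx1 and Zbp1, genes often used as sensitive readouts of interferon, were near the floor at means of 0.31 and 0.15 TPM. The only transcript model of Mx1 here carries a prefix that marks a non-coding RNA, which limits its use as a readout. Psmb8, a subunit of the immunoproteasome, had no count in any library, which allows at most 0.0486 to 0.0665 CPM, from 3 counts of each library total, a limit that covers counting error only. Zbp1, which encodes a sensor of Z-form nucleic acids, had 76 counts in all 12 libraries and was not tested. Ifit3 and Ifit3b, the Oas and Oasl genes and the Phf11 genes are near-identical or similar copies whose reads the authors' counting may have divided, so their values are uncertain.

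**Figure D1:**
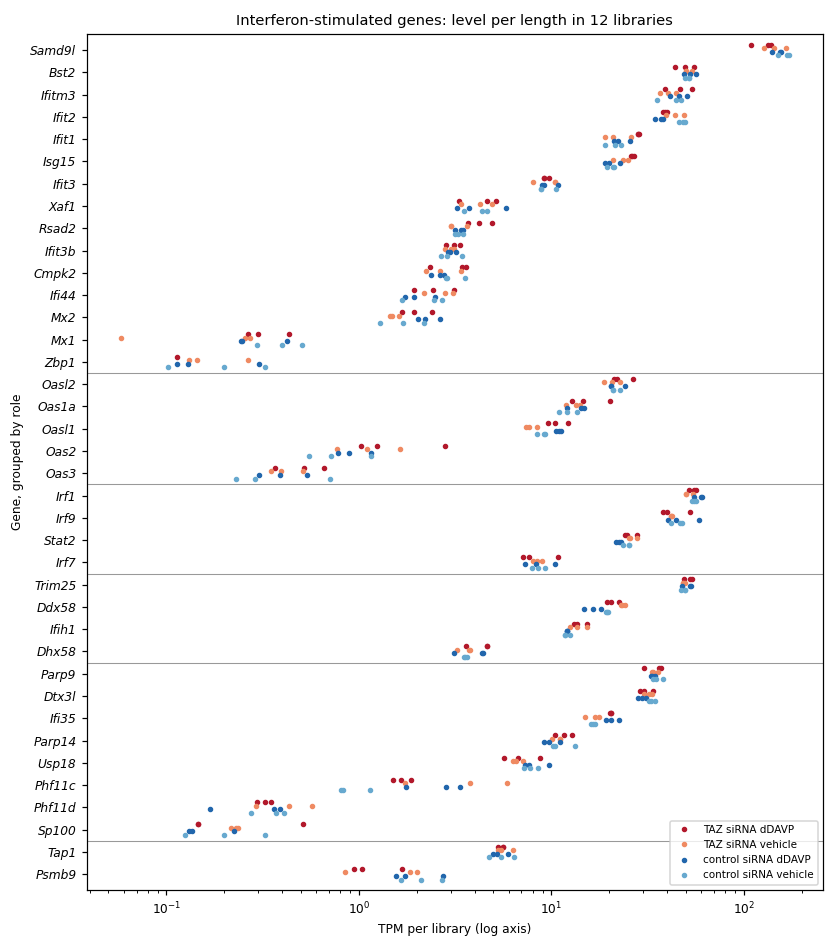
Level of 38 interferon-stimulated genes in TPM (horizontal log axis), with 1 point per library and values of 0 left out; horizontal lines separate the roles. Samd9l averaged 146.4 TPM and lay above all other members, while Mx1, Zbp1, Sp100 and Phf11d averaged under 1 TPM; the 4 groups lie close together for most genes.

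The interferons themselves were almost absent. Of 12 interferon genes listed, none passed the filter, and the 2 with any count, Ifnab and Ifne, summed to 0 to 4 counts per library. Ifnb1, a type I interferon gene induced early after RNA sensing, was at 0 in all 12 libraries. By contrast, all 14 genes of the receptors, kinases and STAT proteins were expressed and tested.

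Some libraries held the highest or lowest value of their group for many members at once. Replicate 3 of TAZ siRNA with dDAVP had the highest value of its group in 27 of 37 members (73.0%), against 30.9% of all genes tested. Replicate 3 of control siRNA with dDAVP was likewise highest in 27 of 37 members, against 31.5% of all genes tested, and 20 members (54.1%) were highest in both, against 11.5% of all genes tested. Replicate 3 of TAZ siRNA with vehicle was the lowest of its group in 24 of 37 members (64.9%), against 33.8% of all genes, and replicate 1 of control siRNA with vehicle was the highest of its group in 22 of 37 (59.5%), against 30.7%.

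Irf9, the DNA-binding subunit of the complex that binds the ISRE, shows the pattern. It stood at 35.5, 37.3 and 49.1 CPM with TAZ siRNA and dDAVP, against 37.7, 43.4 and 55.7 CPM with control siRNA and dDAVP. The last library of each group lay above all the others in the series, which ran up to 43.5 CPM. Irf7, which amplifies interferon production, stood at 4.95, 5.16 and 7.496 CPM with TAZ siRNA and dDAVP, against 4.98, 5.82 and 7.36 CPM with control siRNA and dDAVP. Oas1a, an oligoadenylate synthetase, stood at 8.18, 9.47 and 14.0 CPM with TAZ siRNA and dDAVP, against 8.45, 9.82 and 10.1 CPM with control siRNA and dDAVP. In these genes the step between replicates of 1 group was larger than any difference between group means. What set these libraries apart was not tested. Counts, medians and calls without them are given below.

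**Figure D2:**
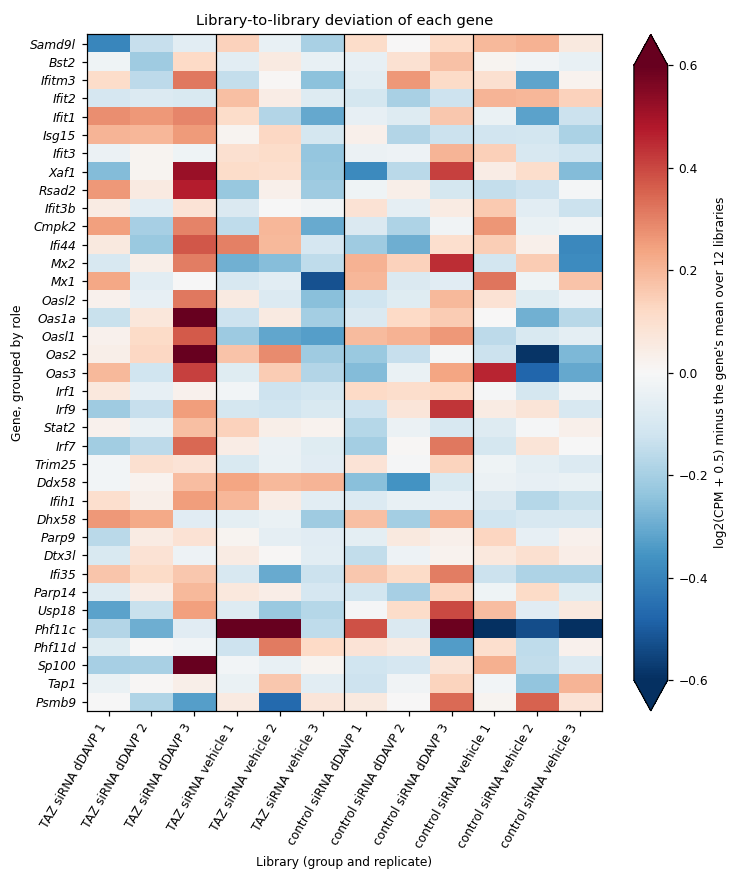
Each cell shows log2(CPM + 0.5) of 1 gene (rows, by role) in 1 library (columns, by group and replicate) minus the mean of the gene over 12 libraries, with colours cut at 0.6 in either direction. Replicate 3 of TAZ siRNA with dDAVP and of control siRNA with dDAVP is red for most genes (28 and 27 of 37 above their own mean), and replicate 3 of TAZ siRNA with vehicle is mostly blue (5 of 37 above).

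With vehicle, TAZ siRNA changed few of these genes. Of 37 members tested, 2 were higher with TAZ siRNA than with control siRNA and none was lower, against 3.19% of all genes called higher and 3.11% called lower. The members' share, 5.41% in either direction, lay near the 6.3% of all genes. The median log2 fold change was -0.01 over the members and 0.00 over all genes, and 16 members lay above 0 and 21 below. Groups did not overlap in 4 members that were higher and 3 that were lower, against 11.9% and 11.5% of all genes. The lower ones were Mx1 (-1.03 ± 0.45, adjusted p = 0.2), Usp18 (-0.24 ± 0.145, 0.38) and Oasl1 (-0.20 ± 0.09, 0.237). None of these was called by the quasi-likelihood F test of edgeR, and Mx1 averaged only 0.31 TPM. Without replicate 3 of TAZ siRNA with vehicle the median was 0.00 and without replicate 1 of control siRNA with vehicle 0.01. Phf11c alone was called each time. In the first of these runs groups did not overlap in 8 higher and 4 lower members, against 16.11% and 16.25% of all genes. In the second they did not overlap in 7 and 4, against 16.16% and 15.26%. With 1 library left out in turn, 1 to 3 members were called, and 410 genes in all without replicate 2 of TAZ siRNA with vehicle, against 1004 with all libraries. Ifit2 was called lower with TAZ siRNA when its vehicle replicate 1 was left out (-0.21, adjusted p = 0.0106 in the edgeR test).

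Ddx58, the RIG-I gene, is the member that was higher with TAZ siRNA in both treatments. It lies at chr4:40203777-40239825, and all of its counts fell on 1 transcript model. With vehicle it stood at 43.4, 42.1 and 42.4 CPM with TAZ siRNA, against 35.9, 35.5 and 35.7 CPM with control siRNA. The groups do not overlap, and each is tight. The log2 fold change was 0.26 ± 0.06 (adjusted p = 0.0201, from the quasi-likelihood F test of edgeR, Benjamini-Hochberg over all genes tested, as for every adjusted p here). With dDAVP it stood at 36.3, 37.3 and 41.9 CPM with TAZ siRNA, against 30.8, 28.6 and 34.5 CPM with control siRNA. Again every TAZ siRNA library lay above every control siRNA library, with a log2 fold change of 0.30 ± 0.06 (adjusted p = 0.00515). These comparisons share no library. The vehicle call was lost, at an adjusted p between 0.0557 and 0.0727, without replicate 1, 2 or 3 of control siRNA or without replicate 2 or 3 of TAZ siRNA, while the fold change stayed between 0.25 and 0.26.

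Ifih1, the MDA5 gene, differed by a similar amount without reaching the threshold in the edgeR test. With vehicle it stood at 29.9, 26.9 and 24.9 CPM with TAZ siRNA, against 24.5, 23.1 and 23.7 CPM with control siRNA, a log2 fold change of 0.20 ± 0.07 (adjusted p = 0.0869). With dDAVP it stood at 28.0, 26.7 and 31.1 CPM with TAZ siRNA, against 24.6, 25.2 and 25.1 CPM with control siRNA, a log2 fold change of 0.19 ± 0.07 (adjusted p = 0.0688). The groups do not overlap in either treatment. With dDAVP it passed in the DESeq2 test (adjusted p = 0.0494) and without replicate 2 of TAZ siRNA with dDAVP (0.0477), and without both replicates 3 of dDAVP it was 0.13 ± 0.08 (0.435). Dhx58, the third gene of this receptor family, had log2 fold changes of 0.00 ± 0.14 with vehicle and 0.08 ± 0.14 with dDAVP, and its groups overlap.

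Phf11c, a PHD finger gene of a cluster of similar copies at chr14:59380833-59393512, was the other member called with vehicle, at low counts. It stood at 2.19, 3.46 and 1.03 CPM with TAZ siRNA, against 0.496, 0.679 and 0.498 CPM with control siRNA, a log2 fold change of 2.01 ± 0.37 (adjusted p = 0.00418), or 2.35 ± 0.27 (adjusted p = 0.000231) without replicate 3 of TAZ siRNA. With dDAVP the direction was the other way and no call was made: 1.01, 0.892 and 1.12 CPM with TAZ siRNA stood against 1.72, 1.102 and 2.06 CPM with control siRNA, a log2 fold change of -0.68 ± 0.35 (adjusted p = 0.248). The TAZ siRNA vehicle libraries spread more than any other group of this gene. Its neighbour Phf11d, at a mean of 0.35 TPM, had a log2 fold change of 0.25 ± 0.36 with vehicle, with overlapping groups.

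With dDAVP, TAZ siRNA again raised 2 of 37 members and lowered none, against 5.77% of all genes called higher and 4.97% called lower, or 10.7% in all. The median over members was 0.05, and 21 lay above 0 and 16 below. Groups did not overlap in 7 members that were higher and 3 that were lower, against 15.1% and 13.8% of all genes. Without replicate 3 of both dDAVP groups, 1 member was called, Ddx58, and 592 of 16198 genes were called in all. The median over members was then 0.02, and groups did not overlap in 10 higher and 10 lower members, against 24.2% and 22.4% of all genes.

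Isg15, at chr4:156199424-156200818, was the second member called. It stood at 7.42, 7.41 and 7.72 CPM with TAZ siRNA and dDAVP, against 6.52, 5.59 and 5.79 CPM with control siRNA and dDAVP. The lowest TAZ siRNA library lay above the highest control library, and the log2 fold change was 0.33 ± 0.09 (adjusted p = 0.0235). With vehicle it stood at 6.47, 6.996 and 5.89 CPM with TAZ siRNA, against 5.85, 5.88 and 5.53 CPM with control siRNA, a log2 fold change of 0.17 ± 0.09 (adjusted p = 0.327). The dDAVP call was lost without replicate 2 (adjusted p = 0.112) or 3 (0.0952) of control siRNA with dDAVP, without replicate 1 (0.0672) or 3 (0.0774) of TAZ siRNA with dDAVP, and without both replicates 3 (0.208).

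A pair of other antiviral effectors, Ifit1 and Rsad2, lay above their controls in the same setting and missed the threshold in the edgeR test. Ifit1, whose protein binds foreign RNA ends, stood at 28.1, 27.7 and 28.4 CPM with TAZ siRNA and dDAVP, against 22.3, 21.8 and 25.9 CPM with control siRNA and dDAVP (log2 fold change 0.27 ± 0.09, adjusted p = 0.0846). Rsad2, which encodes viperin, an enzyme that makes a chain-terminating nucleotide, stood at 6.04, 5.18 and 7.08 CPM with TAZ siRNA and dDAVP, against 4.88, 5.10 and 4.59 CPM with control siRNA and dDAVP (0.33 ± 0.12, adjusted p = 0.0853). Neither pair of groups overlaps, and the gap is narrow for Rsad2, 5.18 against 5.10 CPM. With vehicle the log2 fold changes were 0.04 ± 0.10 for Ifit1 and -0.04 ± 0.12 for Rsad2, with overlapping groups. With dDAVP, Ifit1 passed in the DESeq2 test (adjusted p = 0.0422) and with the compared groups alone (0.0148). Rsad2 passed without replicate 2 of TAZ siRNA with dDAVP (0.42, adjusted p = 0.0278), the lowest library of its group. Neither gene passed without replicate 3 of both dDAVP groups.

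Samd9l, the most abundant member, lay on the other side. It stood at 220.4, 262.8 and 277.3 CPM with TAZ siRNA and dDAVP, against 312.7, 289.7 and 314.0 CPM with control siRNA and dDAVP (log2 fold change -0.27 ± 0.09, adjusted p = 0.0985). With vehicle it stood at 318.9, 280.2 and 252.9 CPM with TAZ siRNA, against 331.4, 334.4 and 301.0 CPM with control siRNA (-0.18 ± 0.09, adjusted p = 0.316). The groups do not overlap with dDAVP and overlap with vehicle, and limma-voom called the dDAVP difference (-0.28, adjusted p = 0.0439). Irf1 (-0.10 ± 0.05, adjusted p = 0.169) and Psmb9, an immunoproteasome subunit (-0.56 ± 0.33, adjusted p = 0.319), were the others whose TAZ siRNA dDAVP libraries all lay below the control siRNA dDAVP libraries.

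Members were also divided by the ISRE letters in their window. With dDAVP the median log2 fold change for TAZ siRNA was 0.18 over the 12 members with the element and -0.01 over the 18 tested members whose window lacked it, and with vehicle it was 0.03 and -0.05. The calls among members with the element were Ddx58 with vehicle, and Ddx58 and Isg15 with dDAVP, and among members whose window lacked it Phf11c with vehicle. Of all genes, 6.3% were called with vehicle and 10.7% with dDAVP. Without replicate 3 of both dDAVP groups, the dDAVP medians for TAZ siRNA were 0.11 with the element and -0.06 without. The vehicle medians were 0.12 and -0.03 without replicate 3 of TAZ siRNA with vehicle. They were 0.11 and -0.03 without replicate 1 of control siRNA with vehicle. For dDAVP against vehicle, 2 members with the element were higher and none lower under TAZ siRNA, beside 2 higher and 1 lower of those without it. Under control siRNA, 0 with the element were higher and 1 was lower, beside 5 higher and 1 lower of those without it. Of all genes, dDAVP raised 6.38% and lowered 4.41% under TAZ siRNA, and raised 9.72% and lowered 9.48% under control siRNA. For dDAVP against vehicle, the medians under TAZ siRNA were 0.15 with the element and 0.06 without it. Under control siRNA they were 0.07 and 0.01. When replicate 3 of both dDAVP groups was left out, they were 0.05 and -0.06 under TAZ siRNA and 0.05 and -0.09 under control siRNA. Members with the element thus had the higher median for dDAVP as well as for TAZ siRNA. The difference between these sets of members was not tested.

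The size of any TAZ siRNA effect can be bounded for members with enough counts. Of 30 members at a mean of at least 2 CPM, the upper end of the 95% confidence interval reached a 2-fold rise for 1 with vehicle and 1 with dDAVP, which was Oas2 both times. Over all 37 tested members it did so for 3 with vehicle and 4 with dDAVP. Phf11c, called with vehicle, lay under the 2 CPM cut, and its whole interval there, 2.345-fold to 6.892-fold, was above 2-fold. Oas2 stood at 2.06, 2.23 and 4.39 CPM with TAZ siRNA and dDAVP, against 1.65, 1.78 and 1.98 CPM with control siRNA and dDAVP. Its log2 fold change was 0.67 ± 0.25 (adjusted p = 0.102), with 1 library of its group far above the other two, and without replicate 3 of both dDAVP groups it was 0.32 ± 0.23 (adjusted p = 0.526). A rise of 1.5-fold lay outside the interval for 28 of the 30 members with vehicle and for 26 with dDAVP. Among the other most abundant genes of each role, Oasl2 and Dtx3l, whose protein is a ubiquitin ligase partner of PARP9, had log2 fold changes for TAZ siRNA of 0.10 ± 0.10 and 0.04 ± 0.05 with dDAVP and -0.08 ± 0.10 and -0.07 ± 0.05 with vehicle. Dtx3l stood at 57.1, 64.7 and 59.6 CPM with TAZ siRNA and dDAVP, against 55.1, 59.7 and 61.8 CPM with control siRNA and dDAVP. Oasl2 stood at 25.4, 24.1 and 31.1 CPM with TAZ siRNA and dDAVP, against 22.9, 23.7 and 28.6 CPM with control siRNA and dDAVP. Tap1, a subunit of the peptide transporter for MHC class I, stood at 5.91, 6.14 and 6.26 CPM with TAZ siRNA and dDAVP, against 5.56, 6.005 and 6.74 CPM with control siRNA and dDAVP. All 3 pairs of groups overlap. The bounds compare the TAZ siRNA with the control siRNA and say nothing of what both share.

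**Figure D3:**
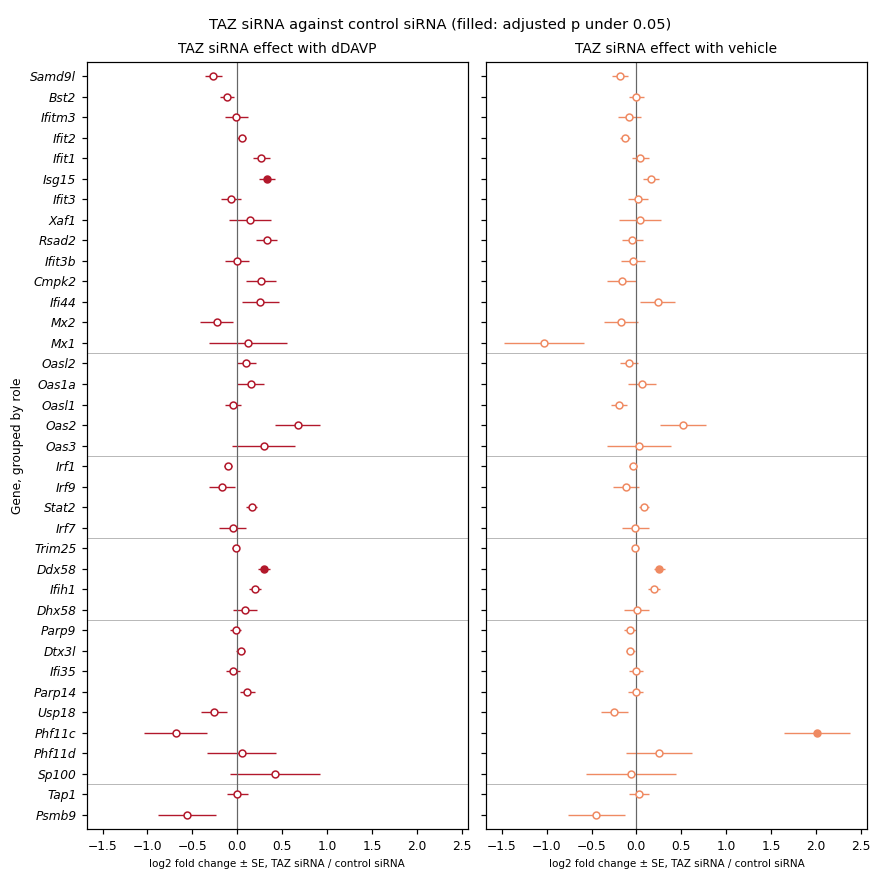
Log2 fold change ± SE of TAZ siRNA over control siRNA for 37 interferon-stimulated genes, with dDAVP (left) and with vehicle (right); filled points passed an adjusted p of 0.05. Many points lie within their SE of 0 and many others lie beyond it, on both sides. Ddx58 is filled in both panels (0.30 and 0.26), Isg15 on the left (0.33) and Phf11c on the right (2.01).

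The dDAVP comparisons changed more members, in both directions and close to the rate of all genes. With TAZ siRNA, 4 of 37 members were higher and 1 was lower with dDAVP than with vehicle, against 6.38% of all genes called higher and 4.41% called lower, or 10.8% in all. With control siRNA, 5 members were higher and 2 were lower, 18.9% of those tested, against 9.72% and 9.48% of all genes, or 19.2% in all. The median over members was 0.10 with TAZ siRNA and 0.06 with control siRNA, against 0.00 over all genes in each. Groups did not overlap in 7 higher and 2 lower members with TAZ siRNA, against 13.7% and 12.6% of all genes, and in 6 higher and 3 lower members with control siRNA, against 17.3% and 17.9%. Oasl1, Ifi35 and Phf11c were called in both. Without replicate 3 of both dDAVP groups, 3 members were higher and 1 was lower with TAZ siRNA, and 3 were higher and 2 lower with control siRNA. The medians over members were then -0.01 and -0.02. Groups then did not overlap in 8 higher and 6 lower members with TAZ siRNA, against 18.3% and 17.7% of all genes, and in 6 and 6 with control siRNA, against 20.9% and 22.2%. When replicate 3 of TAZ siRNA with vehicle was left out, dDAVP raised 3 members and lowered 2 under TAZ siRNA (1752 of 16255 genes). The median was 0.08, with 7 higher and 5 lower members not overlapping, against 20.12% and 19.11% of all genes. When replicate 1 of control siRNA with vehicle was left out, dDAVP raised 4 and lowered 1 under control siRNA (2454 of 16313 genes). The median was 0.10, with 12 higher and 4 lower members not overlapping, against 21.55% and 22.26%.

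Oasl1, an oligoadenylate synthetase-like gene whose mouse protein represses translation of Irf7, rose with dDAVP under both siRNAs. It stood at 7.91, 8.45 and 10.1 CPM with TAZ siRNA and dDAVP, against 6.60, 6.15 and 6.07 CPM with TAZ siRNA and vehicle (log2 fold change 0.49 ± 0.09, adjusted p = 0.00133). It stood at 8.93, 9.03 and 9.38 CPM with control siRNA and dDAVP, against 6.89, 7.26 and 7.42 CPM with control siRNA and vehicle (0.34 ± 0.09, adjusted p = 0.012). All 6 dDAVP libraries lay above all 6 vehicle libraries. The call with control siRNA was lost without replicate 1 of its vehicle group (adjusted p = 0.0538) or replicate 3 of its dDAVP group (0.0502).

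Ifi35, which encodes an interferon-induced leucine zipper protein, rose likewise. It stood at 10.6, 10.2 and 10.5 CPM with TAZ siRNA and dDAVP, against 8.75, 7.52 and 8.54 CPM with TAZ siRNA and vehicle (log2 fold change 0.34 ± 0.08, adjusted p = 0.00793). It stood at 10.5, 10.2 and 11.7 CPM with control siRNA and dDAVP, against 8.54, 8.19 and 8.19 CPM with control siRNA and vehicle (0.38 ± 0.08, adjusted p = 0.00196). Again no dDAVP library overlaps a vehicle library. The call with TAZ siRNA was lost without replicate 2 of its vehicle group (0.27, adjusted p = 0.0587). Nmi, the partner of the Ifi35 protein and not a member here, was named after its value was seen and rose with dDAVP under control siRNA as well (0.26 ± 0.08, adjusted p = 0.022).

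Ifit2 and Ifit1, neighbours in a cluster at chr19:34550550-34650009, went different ways. Ifit2, whose protein promotes apoptosis and binds RNA, stood at 57.2, 53.8 and 56.5 CPM with control siRNA and dDAVP, against 71.1, 70.8 and 67.7 CPM with control siRNA and vehicle. It fell by 0.32 ± 0.05 on the log2 scale (adjusted p = 0.000217), and the groups are well separated. With TAZ siRNA it stood at 57.4, 58.2 and 57.8 CPM with dDAVP, against 69.9, 63.5 and 58.2 CPM with vehicle (log2 fold change -0.14 ± 0.05, adjusted p = 0.0908). The TAZ siRNA vehicle libraries are spread here, and without replicate 3 of that group the change was -0.21 and passed (adjusted p = 0.00696). Ifit1, by contrast, rose with dDAVP in TAZ siRNA cells, where 28.1, 27.7 and 28.4 CPM with dDAVP stood against 24.9, 20.4 and 18.6 CPM with vehicle (0.40 ± 0.09, adjusted p = 0.0109). That call was lost without replicate 2 of the vehicle group (0.36, adjusted p = 0.0572). With control siRNA Ifit1 stood at 22.3, 21.8 and 25.9 CPM with dDAVP, against 22.5, 18.4 and 21.1 CPM with vehicle, overlapping groups (0.17 ± 0.10, adjusted p = 0.252). Ifit3 and Ifit3b, which lie between them, had log2 fold changes between -0.02 and 0.07 in both comparisons.

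Rsad2 rose with dDAVP under TAZ siRNA, where 6.04, 5.18 and 7.08 CPM with dDAVP stood against 4.18, 5.09 and 4.21 CPM with vehicle (log2 fold change 0.44 ± 0.12, adjusted p = 0.0203). The groups are separated by a narrow gap. With control siRNA the change was 0.07 ± 0.12, with overlapping groups. The call under TAZ siRNA was lost without replicate 1 (adjusted p = 0.0802) or 3 (0.0717) of its vehicle group, without replicate 1 (0.0577) or 3 (0.11) of its dDAVP group, without both replicates 3 of dDAVP (0.134) and when only the compared groups were fitted (0.0658). Cmpk2, the mitochondrial nucleotide kinase gene next to Rsad2 on chromosome 12, had a log2 fold change of 0.23 ± 0.16 with TAZ siRNA and -0.20 ± 0.17 with control siRNA.

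Under control siRNA, Irf1 and Trim25 rose by small amounts and Ddx58 fell. Irf1 stood at 49.3, 48.9 and 49.4 CPM with dDAVP, against 45.2, 42.2 and 44.7 CPM with vehicle (log2 fold change 0.16 ± 0.05, adjusted p = 0.0191). Trim25 stood at 110.1, 103.5 and 113.8 CPM with dDAVP, against 101.9, 99.6 and 98.0 CPM with vehicle (0.13 ± 0.04, adjusted p = 0.028). Ddx58 stood at 30.8, 28.6 and 34.5 CPM with dDAVP, against 35.9, 35.5 and 35.7 CPM with vehicle (-0.19 ± 0.06, adjusted p = 0.043). In none of the 3 genes do the groups overlap, and the gap is narrow for Trim25 and Ddx58. With TAZ siRNA the changes were 0.10 ± 0.05, 0.12 ± 0.04 and -0.15 ± 0.06 in the same order, and none passed in the edgeR test (adjusted p = 0.202, 0.0539 and 0.147). Trim25 with TAZ siRNA passed in the DESeq2 test (adjusted p = 0.0335), at a minimum count of 30 (0.0484) and without replicate 1 of TAZ siRNA with dDAVP (0.0281). Each of the control siRNA calls was lost without some single library. The adjusted p of Irf1 was 0.0569 to 0.0976 without replicate 2 of vehicle or replicate 1, 2 or 3 of dDAVP. That of Trim25 was 0.0794 to 0.164 without replicate 2 or 3 of vehicle or replicate 1 or 3 of dDAVP. That of Ddx58 was 0.0886 to 0.205 without any 1 of the vehicle libraries or replicate 1 or 2 of dDAVP, and 0.0505 with no filter on low counts. Without replicate 3 of both dDAVP groups, the adjusted p was 0.0819 for Irf1 and 0.174 for Trim25, and Ddx58 passed under TAZ siRNA (-0.22, adjusted p = 0.016).

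Phf11c was called in opposite directions. With control siRNA, 1.72, 1.102 and 2.06 CPM with dDAVP stood against 0.496, 0.679 and 0.498 CPM with vehicle (log2 fold change 1.55 ± 0.37, adjusted p = 0.00829). With TAZ siRNA, 1.01, 0.892 and 1.12 CPM with dDAVP stood against 2.19, 3.46 and 1.03 CPM with vehicle (-1.15 ± 0.34, adjusted p = 0.0413). The control siRNA groups are apart and the TAZ siRNA groups overlap. Without replicate 3 of TAZ siRNA with vehicle the change was -1.49 (adjusted p = 0.00101). Without replicate 2 of that group it was -0.68 (adjusted p = 0.229), and the call was also lost without replicate 1 of TAZ siRNA with vehicle or without any 1 of the TAZ siRNA dDAVP libraries (0.074 to 0.116), without both replicates 3 of dDAVP (0.0775), and with limma-voom (0.141), no low-count filter (0.0504), a replicate block (0.0757) or the compared groups alone (0.0934).

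**Figure D4:**
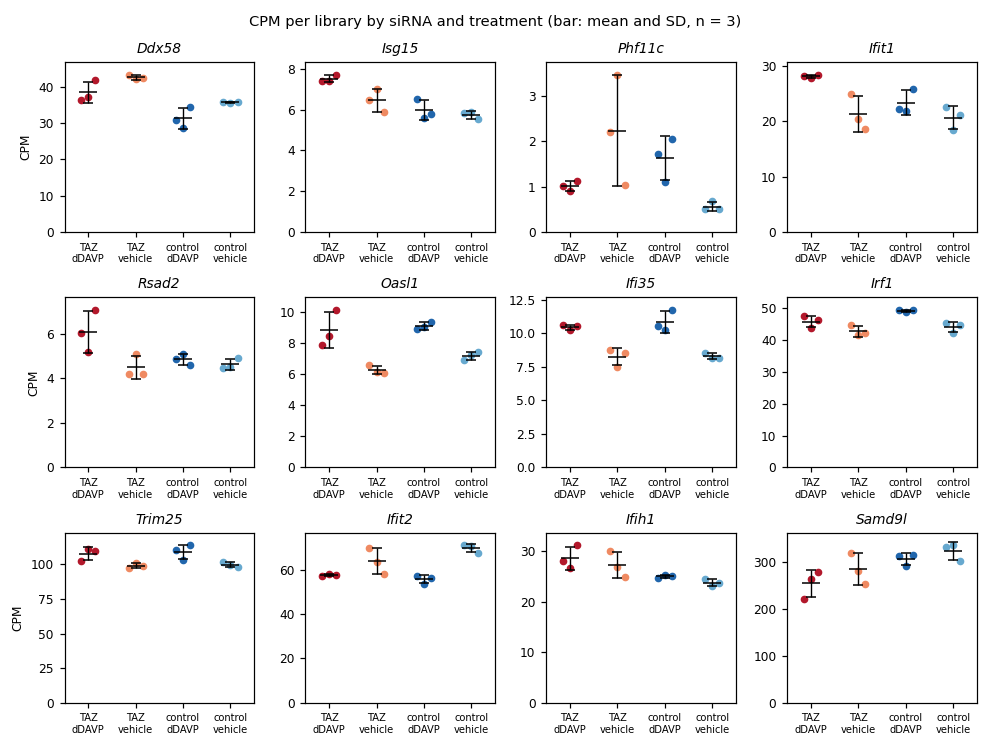
CPM per library (points) with mean and SD (bars, n = 3) for the 10 members called in at least 1 of 4 comparisons and for Ifih1 and Samd9l; every vertical axis starts at 0. Ddx58 is higher with TAZ siRNA than with control siRNA in both treatments, Oasl1 and Ifi35 are higher in all 6 dDAVP libraries than in all 6 vehicle libraries, and the Phf11c libraries with TAZ siRNA and vehicle spread between 1.03 and 3.46 CPM.

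**Figure D5:**
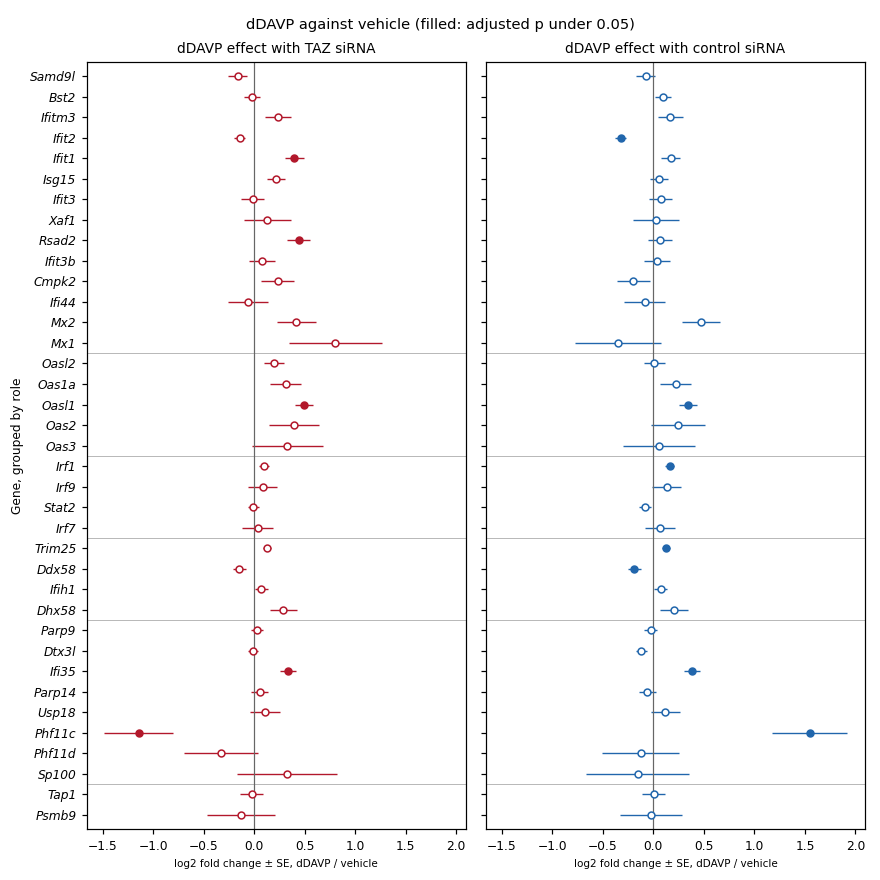
Log2 fold change ± SE of dDAVP over vehicle for 37 interferon-stimulated genes, with TAZ siRNA (left) and with control siRNA (right); filled points passed an adjusted p of 0.05. Oasl1 and Ifi35 are filled to the right of 0 in both panels, Ifit1 and Rsad2 on the left panel only, Ifit2 lies left of 0 on the right panel, and Phf11c changes sides.

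The difference of the dDAVP effects between the siRNAs was tested directly and was called in 0 of 37 members, against 0.0314% of all genes (5 of 15932), by the edgeR test. At an unadjusted p under 0.05 it took in 3 members, and 8.13% of all genes. The largest difference was that of Phf11c (-2.69 ± 0.51, adjusted p = 0.0645), which passed without replicate 3 of TAZ siRNA with vehicle (-3.04, adjusted p = 0.00531). For Ifit1 the difference was 0.23 ± 0.14, for Rsad2 0.37 ± 0.17 and for Ifit2 0.18 ± 0.07 (adjusted p = 0.699, 0.585 and 0.53). So the calls that were made under 1 siRNA and not under the other are not shown to differ between them.

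Genes of the pathway outside the 39 moved as follows. Among 14 receptors, kinases and STAT genes, TAZ siRNA with dDAVP lowered 3, Ifngr2 (-0.20 ± 0.05), Ifnar2 (-0.15 ± 0.04) and Pias1 (-0.13 ± 0.04), and raised none, 21.4% of the list against 10.7% of all genes, and with vehicle it changed none. Ifnar2 and Ifngr2 encode chains of the type I and type II interferon receptors. dDAVP raised 2 and lowered 1 of the 14 with TAZ siRNA, and raised 4 and lowered 1 with control siRNA. That is 21.4% and 35.7% of the list, against 10.8% and 19.2% of all genes. Stat3 and Il10rb, named after their values were seen, rose under both siRNAs.

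Of 19 tested genes of nucleic acid sensing, Tmem173 changed in all 4 comparisons. It encodes STING, the adaptor that carries the signal of cytosolic DNA to interferon induction. It stood at 49.7, 50.3 and 49.2 CPM with TAZ siRNA and dDAVP and at 35.8, 31.2 and 36.0 CPM with TAZ siRNA and vehicle, against 68.9, 67.7 and 66.7 CPM with control siRNA and dDAVP and 47.4, 45.01 and 51.2 CPM with control siRNA and vehicle. TAZ siRNA lowered it by a log2 fold change of -0.45 ± 0.05 with dDAVP and -0.48 ± 0.06 with vehicle. dDAVP raised it by 0.53 ± 0.06 with TAZ siRNA and 0.50 ± 0.05 with control siRNA. With vehicle, Ikbke (0.17 ± 0.05) and Irf5 (0.45 ± 0.13), a kinase and a transcription factor of interferon induction, were higher with TAZ siRNA, and no other gene of this list was called for TAZ siRNA. The shares called for TAZ siRNA were 5.26% with dDAVP and 15.8% with vehicle, against 10.7% and 6.3% of all genes. For dDAVP the share was 10.5% under either siRNA, against 10.8% of all genes with TAZ siRNA and 19.2% with control siRNA.

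Of 45 tested genes in a second list of interferon-induced genes, 4 rose with TAZ siRNA and dDAVP and 2 with TAZ siRNA and vehicle, and none fell. With dDAVP these were Pml (0.25 ± 0.03), which encodes the organiser of PML nuclear bodies, Helz2 (0.22 ± 0.05), Trim30a (0.72 ± 0.18) and the chemokine gene Cxcl10 (0.27 ± 0.08). With vehicle they were Pml (0.15 ± 0.03) and Tdrd7 (0.22 ± 0.05). The shares, 8.89% and 4.44%, stand beside 10.7% and 6.3% of all genes. dDAVP raised 6 and lowered 1 of the 45 with TAZ siRNA, and raised 5 and lowered 5 with control siRNA, 15.6% and 22.2% against 10.8% and 19.2% of all genes. The exonuclease gene Isg20, named after its values were seen, rose by 0.71 ± 0.12 with TAZ siRNA and 1.04 ± 0.12 with control siRNA. Of 13 genes of antigen processing and MHC class I, TAZ siRNA lowered 2 with dDAVP, the proteasome activator genes Psme1 (-0.16 ± 0.03) and Psme2 (-0.23 ± 0.05), 15.4% against 10.7% of all genes, and none with vehicle. dDAVP changed none of the 13 with TAZ siRNA, and raised 3 and lowered 1 with control siRNA, 30.8% against 19.2% of all genes.

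Markers of other cells were at low levels apart from Csf1r and Cd14, and some of them changed. Immune cell markers summed to 73.1 to 76.5 CPM with TAZ siRNA and dDAVP and 69.5 to 73.9 CPM with TAZ siRNA and vehicle, against 70.6 to 75.6 CPM with control siRNA and dDAVP and 69.7 to 72.0 CPM with control siRNA and vehicle. Of the 5 tested, Csf1r was higher (0.35 ± 0.06) and Cd14 lower (-0.34 ± 0.06) with TAZ siRNA and dDAVP, and with control siRNA dDAVP lowered Csf1r (-0.38 ± 0.06) and raised Cd14 (0.55 ± 0.06). With TAZ siRNA, dDAVP raised Cd14 (0.34 ± 0.06). Without both genes the sum was 3.91 to 5.39 CPM. Fibroblast markers summed to 4.44 to 7.16 CPM, with Col1a2, Dcn and Lum at 0. Of 3 tested, Pdgfrb was lower with TAZ siRNA and dDAVP than with control siRNA and dDAVP (-1.08 ± 0.26) and lower with dDAVP than with vehicle under TAZ siRNA (-0.86 ± 0.26). Endothelial markers summed to at most 0.275 CPM, and the 1 tested, Pecam1, was not called. The part of these markers in the results was not tested. In these bulk libraries a smaller share of cells expressing a gene and less RNA per cell cannot be told apart.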

How the data were processed

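RNA of 12 libraries was sequenced after preparation with TruSeq kits, per the labels' protocols. The submitters' processing notes list Bowtie 0.12.2, mm8 and mm10 without a stated role, and no source used here names the program that counted. Per the file headers, the deposited tables hold an estimated count for every gene and transcript, unscaled, as whole numbers. TPM values per gene and transcript were deposited by the authors, per the file headers, and served here to compare levels between genes. The values show how the counts arose. Of 157342 transcript counts between 2 and 20, 100% equalled TPM times transcript length times 1 factor per library, rounded up, and 85.5% of those products missed a whole number by over 0.05. The gene count was the sum over transcripts in all but 12 of 549324 cases. A further 24 per-sample columns were left unused.

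The estimates, which came as whole numbers, were tested with edgeR 4.0.16 in R 4.3.3, as a design made for read tallies had set. After filterByExpr with a minimum count of 10, 15932 genes with 99.98% of all counts were tested. TMM factors were 0.988 to 1.01, and the coefficient of biological variation was 5.11%. The quasi-likelihood F test, with 1 mean per group fitted to all 12 libraries, gave 5 contrasts, adjusted by Benjamini-Hochberg over all tested genes and called at an adjusted p under 0.05. Each standard error is the absolute log2 fold change divided by the square root of F, and CPM use TMM-scaled library sizes. The procedure was tested on simulated data. Libraries of 1 group differed beyond counting error (chi-square over its degrees of freedom, 4.2 to 13.2), and each counts as 1 sample. Alternatives were DESeq2 1.42.0 (size factors in edgeR, and its own test), limma-voom (limma 3.58.1), no filter, a minimum count of 30, a replicate block, the compared groups alone and each library left out. Leaving out replicate 3 of both dDAVP groups was added after the data had been seen.

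The members and lists were chosen with earlier results of these data known. By rule, values per library were given for members called in any comparison and for the most abundant member of each role, and outside the 39 genes for those called for TAZ siRNA, at most 5 a list, with Ifnb1, Wwtr1 and Aqp2. A listed pathway gene is not reported here. Irf7, Irf9, Oas1a, Oas2 and Ifih1 were added after their values were seen. Promoter windows come from RefSeq GRCm38.p6 and were matched by gene identifier. Figures were drawn with matplotlib 3.10.9.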

Additional observations from a re-analysis of the deposited data

How the results depend on the processing

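No called member changed direction under any alternative run. For TAZ siRNA with dDAVP, 4 members were called by the DESeq2 test and 1 without replicate 3 of both dDAVP groups (592 genes in all), against 2 (1711). For dDAVP with TAZ siRNA, 3 members were called in the compared groups alone, against 5. For the difference of dDAVP effects, 77 genes were called by DESeq2, 12 without the low-count filter, 12 at a minimum count of 30 and 0 without replicate 3 of both dDAVP groups, against 5. The cause of these changes was not tested. With each library left out in turn, the members called ranged from 1 to 3 (410 to 1435 genes in all) for TAZ siRNA with vehicle, 1 to 5 (1049 to 1625) for TAZ siRNA with dDAVP, 2 to 5 (1118 to 1752) for dDAVP with TAZ siRNA, 4 to 5 (2103 to 2685) for dDAVP with control siRNA and 0 to 1 (3 to 16) for the difference. The lowest count for TAZ siRNA with vehicle came without its replicate 2 and the highest without its replicate 1. The labels do not say what a replicate number marks. Same-numbered libraries of different groups correlated at -0.246 to 0.574 (median 0.19, 12 of 18 pairs over 0.1). Others correlated at -0.496 to 0.379 (median -0.10, 11 of 36), and 6 of 12 libraries correlated best with their own number. Same-numbered libraries were thus more alike in the median, and whether they share a culture was not tested. Because the labels name no pairing, the main fit took no pairs. With the replicate number as a block, 2, 2, 4 and 7 members were called in those comparisons in the order above and 0 for the difference. Members under 2 CPM are limited by depth.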

Other observations

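The transcript models of Irf1 split the gene in an unequal way between libraries. The model NM_008390 held 15.5%, 19.3% and 86.2% of the Irf1 count with TAZ siRNA and dDAVP and 11.6%, 10.2% and 16.7% with TAZ siRNA and vehicle, against 84.9%, 12.6% and 89.9% with control siRNA and dDAVP and 85.1%, 81.0% and 79.2% with control siRNA and vehicle. Nearly all of the rest was given to XM_030245600, a model of 2298 bases beside 2138 bases for NM_008390. Each library thus has 1 dominant model, and libraries of 1 group can differ in which it is. The summed gene count of Irf1, used in the report, stayed between 41.6 and 49.4 CPM in all 12 libraries. Ddx58, Isg15, Phf11c, Ifit1 and Rsad2 have a single model each, and so no such split. The models of Mx1 and Mx2 in the table are NR_003520 and NR_003508, whose prefix marks a non-coding RNA.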
